A study of Saccharomyces cerevisiae with 24 samples.

Results

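Budding yeast gene pairs were examined for trans differences, meaning allele ratios that were not the same in a hybrid cell as in a mixture of its parents. Per library, the reads of the RM allele were set against those of the BY allele of the same gene, with each allele column scaled to its own total, and the ratio was compared between 12 co-culture and 12 hybrid libraries. Of the 4442 gene pairs counted, 2661 reached 100 reads, summed over their alleles, in each of the groups, and these were the members. The hybrid group was WL201, an a/alpha diploid made from BY4741 and RM11-1alpha, and the co-culture group held BY4741 and RM11-1a cells of mating type a, described by the labels as MAT-a. BY4741 is a laboratory strain, and RM11 derives from a vineyard isolate. Both groups were grown at 30 °C with shaking at 250 rpm from an optical density of 0.1 to 1.0, in 4 technical-replicate cultures each, and messenger RNA was selected and reverse transcribed with oligo-dT.

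When both alleles sit in 1 nucleus they meet the same transcription factors, so a ratio away from even in the hybrid is called cis. In the co-culture each allele works under its own strain's factors, and that ratio is called parental. The trans difference is parental minus cis on the log2 scale, and it is positive when the RM allele stood relatively higher in its own cells than in the hybrid. Crosses of these strains are known for regulators that differ in sequence and act on many genes at once, such as HAP1 in respiration and sterol synthesis and AMN1 in the separation of daughter cells.

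The hybrid is diploid and carries both mating-type alleles, and the RM parent of the hybrid was not the RM strain of the co-culture, so ploidy, mating type and the strain's own regulators cannot be told apart in any trans difference below. The mating-type labels were checked with cell type markers. Summed over the 4 a-specific genes counted (of 6 listed), the level lay between 106 and 154 CPM (reads per 1000000 reads) in the hybrid and between 9690 and 10400 in the co-culture, and the 2 alpha-specific genes counted (of 4) stood at 4.93 to 15.9 and 0 to 13.4. The hybrid libraries held 165503 to 232428 allele-assigned reads and the co-culture libraries 199838 to 227175. The BY share of reads was 50.09 to 50.52% in the hybrid and 44.96 to 45.35% in the co-culture, a difference that the scaling to column totals removes. Libraries that agreed within sampling noise were summed, which left 6 summed replicates per group, and n = 6 below refers to them. They outnumber the 4 cultures, nothing in the labels ties libraries to cultures, and the p-values therefore measure the spread between these libraries, which may be technical.

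Of the 2661 gene pairs, 566 (21.3%) differed in trans by edgeR's quasi-likelihood test at a Benjamini-Hochberg adjusted p under 0.05. The RM-over-BY ratio was higher in the co-culture for 232 (8.72%) and lower for 334 (12.6%). With TMM scaling in place of column totals the split turned to 319 higher and 233 lower, and the median trans difference of all pairs moved from -0.08 to 0.01. Of the 566 pairs, 465 were called in the same direction under both scalings. In the same fit the cis ratio passed for 535 pairs (20.1%), the RM allele leading in 302 (11.3%) and the BY allele in 233 (8.76%). In the parental ratio 1076 pairs (40.4%) passed, RM leading in 475 (17.9%) and BY in 601 (22.6%); the 3 tests share libraries, so only their values are set side by side. Among the 566, the median absolute trans difference was 0.63, and 46 higher and 59 lower pairs exceeded 1 in size. The ratios of the 6 summed replicates did not overlap between groups for 229 pairs (8.61%), of which 222 were called.

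Allele ratios spread wider in the co-culture than in the hybrid. Over the 465 gene pairs with at least 1000 reads in each group, the median absolute log2 ratio was 0.191 ± 0.0130 (SD, n = 6) in the hybrid and 0.290 ± 0.00636 (SD, n = 6) in the co-culture. The lowest co-culture value, 0.283, lay above the highest hybrid value, 0.207, and a 2-sided exact permutation test gave p = 0.00216, the smallest this design allows.

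**Figure D1:**
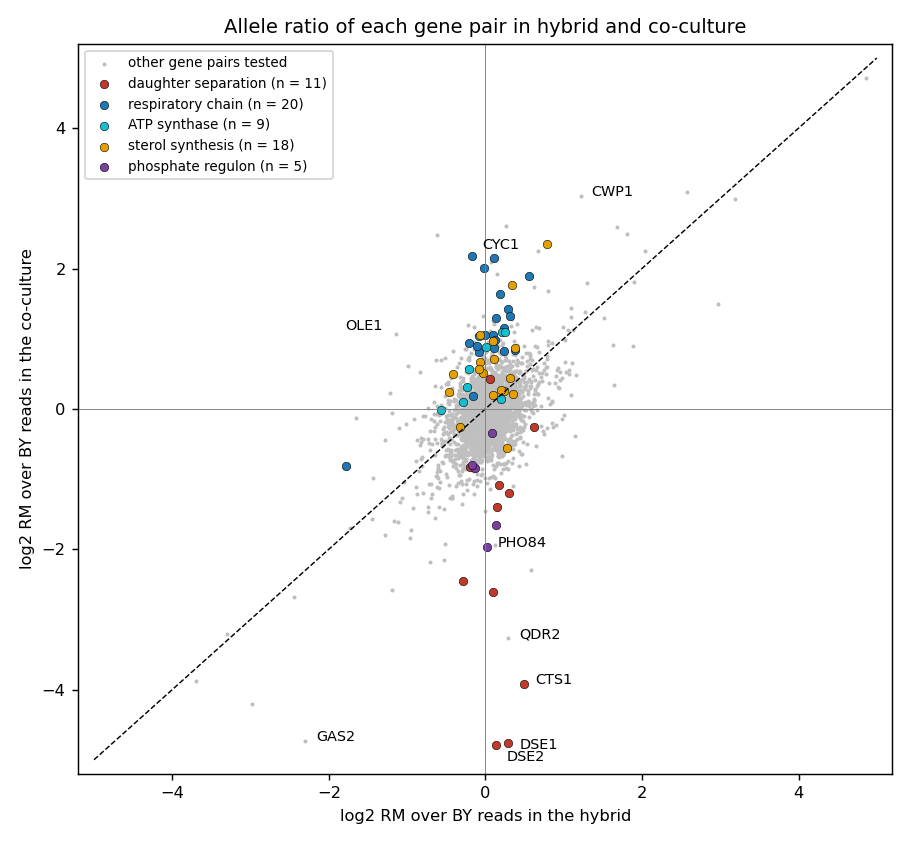
Each point is 1 tested gene pair, with its log2 RM-over-BY ratio in the hybrid on the x axis and in the co-culture on the y axis; LYS2 and MET17 are left out. Daughter separation genes other than PRY3 lie within 0.50 of 0 on the x axis, and all but ASH1 lie below 0 on the y axis; respiratory chain genes other than COX9 lie above 0 on the y axis.

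The largest trans differences with the co-culture ratio lower were those of genes that part a daughter cell from its mother. After division, chitinase and glucanase genes are turned on in the daughter cell and dissolve the septum, and the transcription factor Swi5 acts at the same point of the cell cycle. Of 11 tested members of this list (12 listed, and NIS1 fell short of the read minimum), 10 were lower and 0 higher, against 12.6% and 8.72% of all pairs. Their median trans difference was -1.55, beside -0.08 over all pairs. ASH1, a daughter-specific repressor of mating-type switching, did not pass (0.37, SE 0.29).

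DSE1 and DSE2 are shown with the part of their upstream region that holds ACCAGC, a motif of Swi5, since they had the 2 lowest differences among the named genes. Capitals mark ACCAGC or its reverse complement, and the sequences are those of the RefSeq R64 assembly, on the strand of the gene. DSE1 is from chrV:409271-409549, minus strand, and DSE2 from chrVIII:385049-385293, plus strand.
DSE1: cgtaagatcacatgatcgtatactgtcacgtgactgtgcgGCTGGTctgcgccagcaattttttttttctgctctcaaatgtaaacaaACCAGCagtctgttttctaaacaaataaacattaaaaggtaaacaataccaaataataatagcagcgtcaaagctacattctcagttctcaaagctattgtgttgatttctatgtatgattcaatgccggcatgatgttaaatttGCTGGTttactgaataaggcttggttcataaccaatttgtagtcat
DSE2: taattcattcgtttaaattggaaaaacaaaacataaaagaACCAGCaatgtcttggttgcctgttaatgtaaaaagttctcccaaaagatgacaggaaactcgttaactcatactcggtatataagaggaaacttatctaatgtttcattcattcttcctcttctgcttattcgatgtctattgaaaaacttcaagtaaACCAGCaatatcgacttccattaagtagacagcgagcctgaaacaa
In the 500 bases before the coding start, on either strand, ACCAGC occurred upstream of 5 of the 11 tested daughter genes and of 13.0% of 4323 genes. A match of letters is a description and not a binding site.

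For DSE1, a daughter-specific cell wall gene, the log2 RM-over-BY ratio ran from 0.03 through a median of 0.39 to 0.94 in the 6 hybrid replicates and from -6.04 through -4.77 to -3.65 in the co-culture. Its RM allele had only 20 reads over all co-culture replicates, with 1 read in replicate 1 and 1 in replicate 5. The size of its co-culture ratios is therefore uncertain. The 2 ranges lay more than 3 units apart, all hybrid values being above 0. That the ranges were separate was required for its choice among the largest differences. The trans difference was -5.06 (SE 0.26, adjusted p = 4.11e-80). DSE2, another daughter-specific gene, ran from -0.11 through 0.12 to 0.33 in the hybrid and from -5.21 through -4.65 to -4.48 in the co-culture (trans -4.91, SE 0.16). Its BY allele stood at 1069 ± 39.8 CPM of the allele column in the co-culture and 475 ± 41.7 in the hybrid, and its RM allele at 37.8 ± 6.70 and 516 ± 55.6 (SD, n = 6). In the hybrid both alleles of DSE2 thus lay between the levels of the 2 strains, and the RM allele was far above its level in RM cells.

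CTS1, the chitinase, ran from 0.26 through 0.49 to 0.68 in the hybrid and from -4.39 through -3.87 to -3.62 in the co-culture, a trans difference of -4.42 (SE 0.11). Its RM allele was above the BY allele in every hybrid replicate and below it in every co-culture replicate. SCW11, a glucanase, differed by -2.70 (SE 0.19) and DSE4, another glucanase, by -2.17 (SE 0.36). SUN4 (-1.49, SE 0.10), of the cell septation family, and BUD9 (-1.55, SE 0.31), which marks the pole for budding, were smaller, and the replicates of BUD9 overlapped between groups. EGT2, expressed early in G1, fell by 0.63 (SE 0.05). The 4 levels of EGT2 were 3173 ± 72.0 for BY and 1791 ± 66.7 for RM in the co-culture, and 2876 ± 214 and 2483 ± 139 in the hybrid. Over the list the RM allele was higher in the hybrid than in the co-culture for 11 of 11 genes (median log2 of 1.44), while the BY allele was higher for 2 (median -0.63). Of 2659 gene pairs in all, the RM allele was higher for 1635 (median 0.14) and the BY allele for 1461 (median 0.06).

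**Figure D2:**
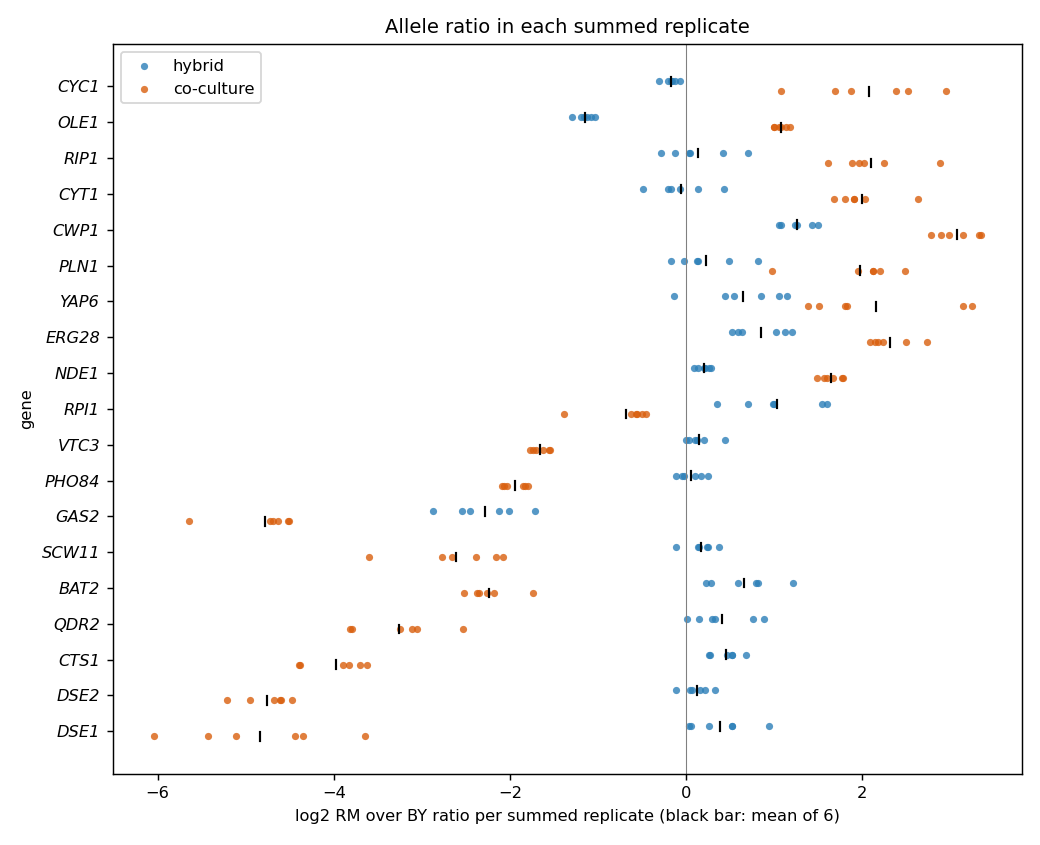
Points are the log2 RM-over-BY ratio of single summed replicates on the x axis, 6 per group, for the named genes with the largest trans differences on the y axis; black bars are means, and LYS2 is left out. The hybrid and co-culture points of each gene form separate ranges, which the choice of these genes required.

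AMN1 encodes a daughter-specific factor that opposes mitotic exit signals, and its RM form has been mapped as a regulator of daughter genes in crosses of these strains. Its own ratio ran from -0.58 through -0.22 to 0.40 in the hybrid and from -1.53 through -1.10 to -1.05 in the co-culture, without overlap (trans -1.07, SE 0.16, adjusted p = 7.98e-10). The BY allele of AMN1 had 704 ± 89.7 CPM in BY cells and 192 ± 36.0 in the hybrid, and the RM allele 307 ± 45.8 in RM cells and 178 ± 42.4 in the hybrid. Its cis ratio was -0.15 (SE 0.13) and did not pass. SWI5 (0.19, SE 0.27) and CBK1 (-0.02, SE 0.26), a kinase needed for cell separation, did not pass in trans. Of 7 tested genes of the cell cycle list 1 was higher and 2 were lower, against 8.72% and 12.6% of all pairs. CLN3, the most upstream G1 cyclin, was higher (0.92, SE 0.15), while SIC1, the inhibitor that holds cells in G1 (-1.11, SE 0.30), and CLB4, a B-type cyclin (-1.06, SE 0.31), were lower. DESeq2 called neither of the lower pair, and CLB4 was lost without hybrid replicate 4.

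Genes of phosphate uptake and storage formed the second group with lower co-culture ratios. When phosphate is scarce, Pho4 enters the nucleus and turns on the transporter PHO84 and the polyphosphate polymerase complex of the vacuole. Of 16 listed genes, 5 passed the read minimum, and all 5 were lower (median -0.70), against 12.6% of all pairs; DESeq2 called 4. PHO84 ran from -0.12 through 0.04 to 0.25 in the hybrid and from -2.10 through -1.94 to -1.79 in the co-culture (trans -1.98, SE 0.07, adjusted p = 9.71e-167). VTC3, a subunit of the polymerase complex, ran from 0.00 through 0.11 to 0.44 and from -1.77 through -1.66 to -1.55 (trans -1.79, SE 0.06). Neither gene's groups overlapped, which their choice among the largest differences required. VTC2 (-0.70, SE 0.14), PHO81 (-0.63, SE 0.10), the inhibitor of the cyclin kinase that restrains Pho4, and PHO86 (-0.43, SE 0.13), which helps Pho84 leave the endoplasmic reticulum, were smaller.

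PHO84 stood at 2744 ± 99.2 CPM for BY and 712 ± 55.4 for RM in the co-culture, and at 1410 ± 108 and 1472 ± 179 in the hybrid, so that both hybrid alleles lay between the strains. PHO84 is itself a gene with a known amino acid difference between these strains, and its reading frame overlaps another annotated gene, whose reads could not be separated from its own. The Pho4 motif CACGTG, which Cbf1 also binds, is printed in capitals for the 2 genes with the largest differences. Both windows are from R64 on the minus strand, PHO84 at chrXIII:26169-26276 and VTC3 at chrXVI:517284-517403.
PHO84: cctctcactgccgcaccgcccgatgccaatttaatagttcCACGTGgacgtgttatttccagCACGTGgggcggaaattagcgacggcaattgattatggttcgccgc
VTC3: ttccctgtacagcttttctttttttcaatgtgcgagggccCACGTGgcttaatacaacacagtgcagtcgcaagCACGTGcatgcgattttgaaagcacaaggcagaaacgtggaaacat
CACGTG, which reads the same on both strands, occurred upstream of 5 of the 5 tested phosphate genes and of 6.38% of all promoters, and also of 7 of 9 tested methionine and sulfate genes, of which 3 were higher and 1 lower in trans.

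Respiration was the largest group with higher co-culture ratios. Nuclear genes for subunits of the electron transport chain and ATP synthase are activated by the Hap2/3/4/5 complex when glucose is low. Hap1 activates a part of these genes in response to heme and oxygen. Of 20 tested respiratory chain genes (26 listed), 19 were higher and 0 lower, against 8.72% of all pairs, with a median of 1.01 beside -0.08 over all pairs. SDH4, of succinate dehydrogenase, did not pass (0.46, SE 0.22). Complexes II, III and IV each had higher members, among them SDH1 (1.14, SE 0.34) of complex II, QCR2 (1.00, SE 0.09) and RIP1 (2.03, SE 0.18) of complex III, and COX4 (1.06, SE 0.16) and COX8 (1.02, SE 0.16) of cytochrome oxidase. The internal and external NADH dehydrogenases NDI1 (1.15, SE 0.22) and NDE1 (1.44, SE 0.08) were higher as well.

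CYC1, the main cytochrome c, ran from -0.31 through -0.16 to -0.07 in the hybrid and from 1.08 through 2.13 to 2.96 in the co-culture (trans 2.35, SE 0.18, adjusted p = 2.61e-36). CYT1, cytochrome c1, ran from -0.49 through -0.12 to 0.43 and from 1.68 through 1.91 to 2.63 (trans 2.02, SE 0.17), and RIP1, the Rieske protein, from -0.28 through 0.04 to 0.70 and from 1.61 through 1.99 to 2.88. In these genes no hybrid replicate reached the lowest co-culture replicate, which their choice required. The BY allele of CYC1 had 70.7 ± 23.98 CPM in BY cells and 483 ± 39.2 in the hybrid, and the RM allele 297 ± 47.4 in RM cells and 427 ± 27.1 in the hybrid, so both hybrid alleles lay above both strains. For RIP1 and CYT1 the hybrid alleles lay between the strains, RIP1 at 85.2 ± 10.99 for BY and 378 ± 70.9 for RM in the co-culture and 271 ± 27.6 and 300 ± 58.6 in the hybrid. Over the 20 genes the BY allele was higher in the hybrid than in the co-culture for 18 (median log2 of 0.93) and the RM allele for 6 (median -0.33). Of 2659 gene pairs in all, the BY allele was higher for 1461 (median 0.06) and the RM allele for 1635 (median 0.14).

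ATP synthase had 9 tested members, of which 8 were higher and 0 lower (median 0.78), against 8.72% and 12.6% of all pairs. ATP1 (0.84, SE 0.09) and ATP2 (0.87, SE 0.07), the alpha and beta subunits of the catalytic head, had replicates that did not overlap between groups. ATP7, a stalk subunit, did not pass (-0.06, SE 0.22). The count fell to 4 with DESeq2 and without co-culture replicate 4, to 5 without co-culture replicate 2 or hybrid replicate 4, and no member turned. The TCA cycle, which feeds the chain, did not share this pattern in its counts. Of 9 tested genes 0 were higher and 1 (11.1%) was lower, LPD1 (-0.33, SE 0.07), near the 12.6% of all pairs. Their median was -0.07. The lower count was 2 without any 1 of co-culture replicates 1 and 6 and hybrid replicate 4, or with a minimum of 500 reads. Of 29 mitochondrial ribosomal protein genes 3 (10.3%) were higher (median 0.29), near the 8.72% of all pairs. DESeq2 called 0 of them, as did the fit without hybrid replicate 4. Of all 2661 pairs DESeq2 called 188 higher.

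**Figure D3:**
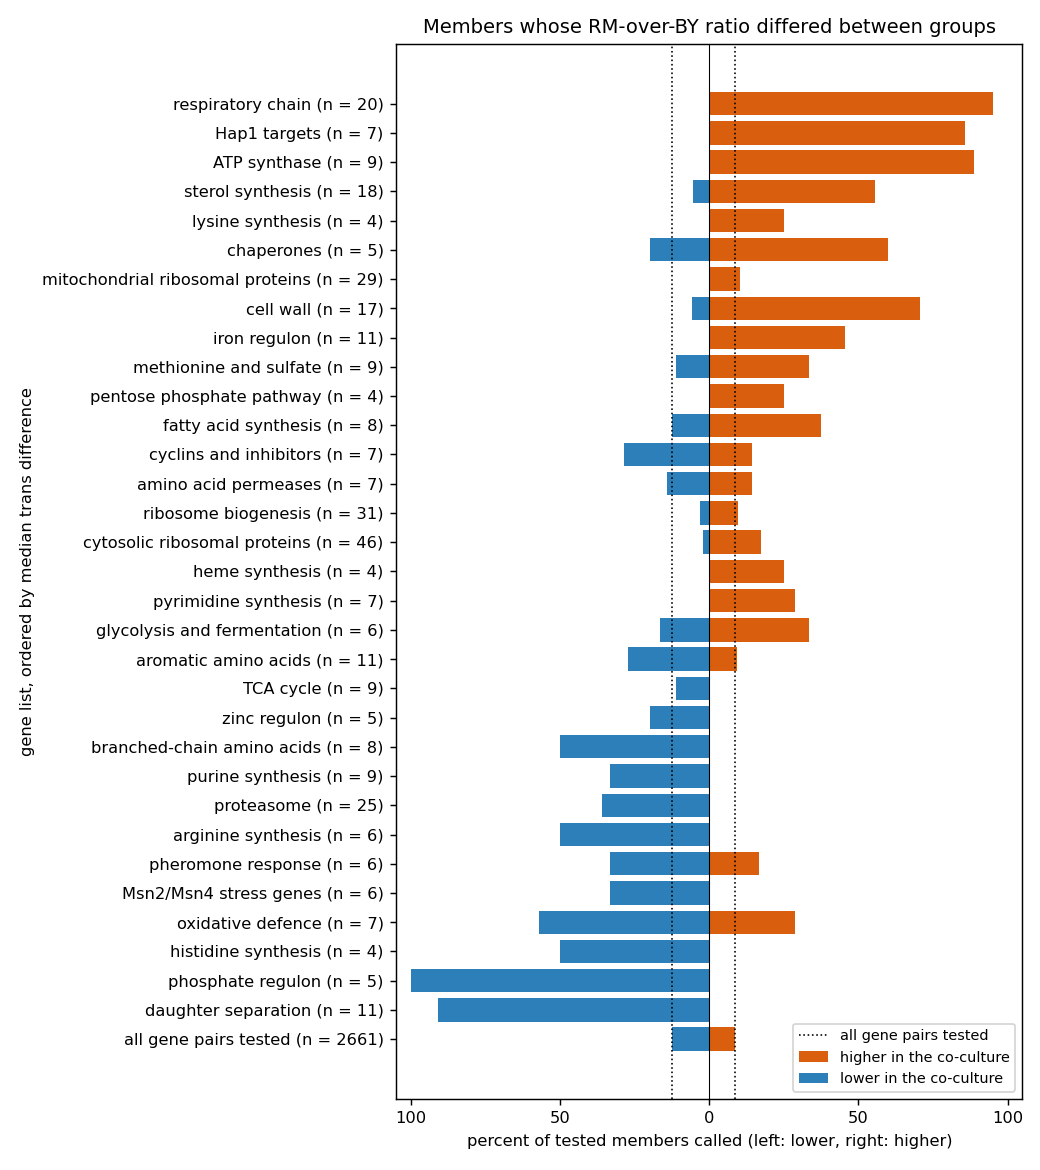
Bars give the percent of tested members of each gene list whose ratio was called higher (right) or lower (left) in the co-culture, with lists on the y axis ordered by median trans difference and dotted lines at the percent over all gene pairs. The respiratory chain and Hap1 targets extend to the right, and phosphate and daughter separation genes to the left.

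The Hap1 targets and sterol genes overlap with that group or stand beside it. Of 7 tested Hap1 targets (12 listed), 6 were higher and 0 lower (median 0.87), against 8.72% and 12.6% of all pairs. CYC1 and CYT1 are counted in the respiratory chain too, and HMG1, ERG11 and ERG3 in sterol synthesis. YHB1, a nitric oxide oxidoreductase, was the other one (0.56, SE 0.05), and NCP1 (0.07) did not pass. The alleles of YHB1 stood at 4817 ± 288 for BY and 3933 ± 161 for RM in the hybrid, above the 1916 ± 74.4 and 2258 ± 169 of the co-culture. The consensus Hap1 site was matched upstream of 0 of the 7 targets and of 0.416% of all promoters, which says only that those letters were not in the window.

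Sterol synthesis runs from acetyl-CoA to ergosterol, and Upc2 and Ecm22 activate its genes when sterols are low. Of 18 tested genes (24 listed) 10 were higher and 1 lower (median 0.57), against 8.72% and 12.6% of all pairs. Under TMM 12 were higher and 1 lower, beside 319 and 233 of all 2661 pairs. HMG1, one of the HMG-CoA reductases that set the rate of the pathway, ran from 0.10 through 0.37 to 0.56 in the hybrid and from 1.64 through 1.74 to 1.98 in the co-culture (trans 1.42, SE 0.09, adjusted p = 1.4e-49). Its paralog HMG2 was the 1 lower member (-0.84, SE 0.16). ERG28, a scaffold of the demethylation complex, ran from 0.52 through 0.82 to 1.21 and from 2.09 through 2.21 to 2.74 (trans 1.56, SE 0.22), with a cis ratio of 0.78 (SE 0.13) in the same direction. ERG25, the C-4 methyl sterol oxidase in that complex, ran from -0.37 through -0.07 to 0.18 and from 0.95 through 1.04 to 1.22 (trans 1.12, SE 0.06). The replicates of HMG1, ERG28 and ERG25 did not overlap between groups, which the choice of ERG28 among the largest differences required. ERG10 (0.65, SE 0.04) and ERG3 (0.71, SE 0.08) were higher by less, while ERG6 (0.02, SE 0.09), IDI1 (0.12, SE 0.18) and ERG4 (0.11, SE 0.07) did not pass, ERG4 being called under TMM.

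The sterol response letters TCGTATA occurred upstream of 6 of the 18 tested sterol genes and of 6.96% of all promoters. The windows of ERG28 and ERG25 are printed because these had the largest differences among the genes that hold the motif, with the motif or its reverse complement in capitals. ERG28 is at chrV:238248-238334, minus strand, and ERG25 at chrVII:610064-610147, plus strand, in R64.
ERG28: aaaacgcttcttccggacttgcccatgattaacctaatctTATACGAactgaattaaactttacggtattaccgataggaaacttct
ERG25: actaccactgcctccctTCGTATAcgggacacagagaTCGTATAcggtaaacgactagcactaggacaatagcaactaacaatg

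OLE1, the delta-9 desaturase that makes unsaturated fatty acids, turned its allele order between the groups. Its ratio ran from -1.30 through -1.14 to -1.03 in the hybrid and from 1.00 through 1.07 to 1.18 in the co-culture (trans 2.21, SE 0.05). In all hybrid replicates the BY allele was ahead and in all co-culture replicates the RM allele was ahead. The BY allele went from 1998 ± 93.6 CPM in BY cells to 4209 ± 223 in the hybrid, and the RM allele from 4210 ± 167 in RM cells to 1901 ± 131 in the hybrid. MGA2, which encodes one of the membrane-bound activators of OLE1, was lower (-0.77, SE 0.12), and SPT23, the other, did not pass (0.25, SE 0.15). Of the 8 tested fatty acid genes 3 were higher and 1 lower, against 8.72% and 12.6% of all pairs. ACC1 (0.34, SE 0.06) and FAS1 (0.31, SE 0.05) were higher and ELO1 (-0.59) lower. PLN1, a lipid droplet protein, was higher by 1.77 (SE 0.19).

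**Figure D4:**
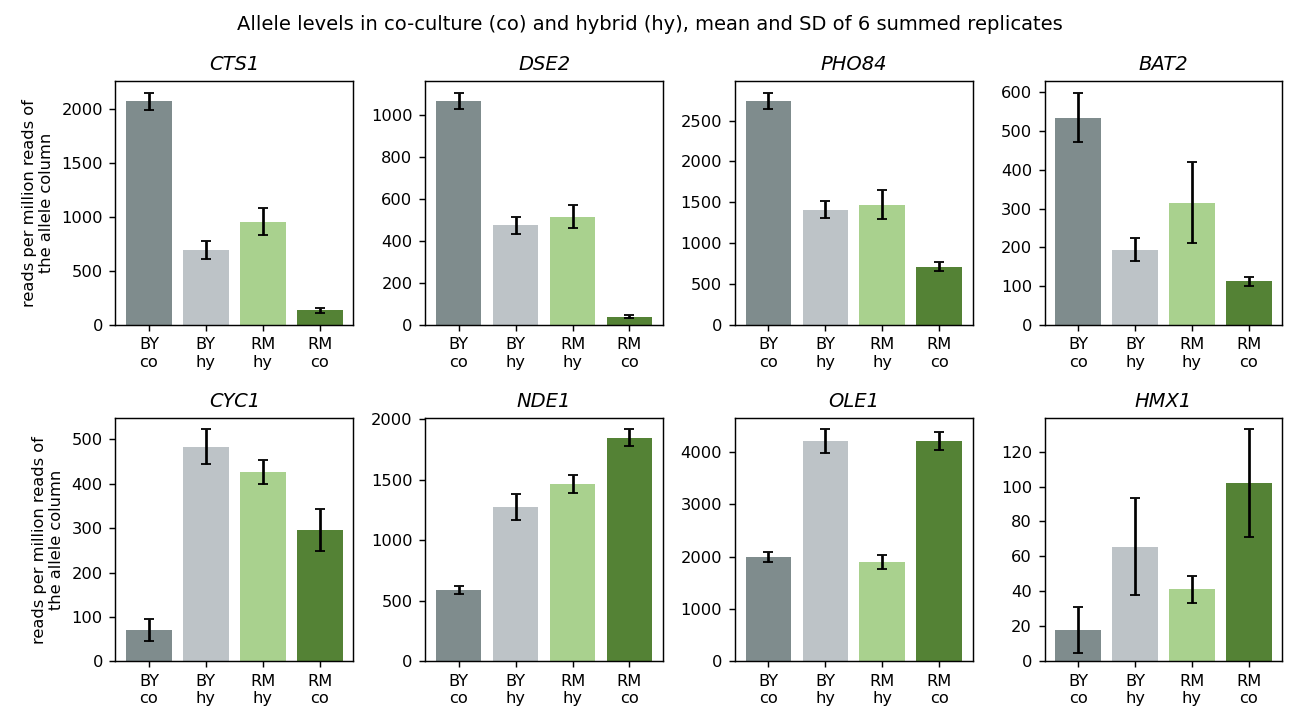
Bars are mean CPM of the allele column with SD (n = 6) for each allele in co-culture and hybrid, 1 panel per gene, each with its own y axis from 0. DSE2 and PHO84 show hybrid alleles between those of the strains, and OLE1 shows the BY allele up and the RM allele down in the hybrid.

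A part of the iron genes was higher. Aft1 turns on iron uptake when iron is short. Of 11 tested members (20 listed) 5 were higher and 0 lower (median 0.22), against 8.72% and 12.6% of all pairs. With TMM scaling 6 were higher, beside 319 of all 2661 pairs. HMX1, a heme oxygenase that releases iron from heme, ran from -1.16 through -0.53 to 0.36 in the hybrid and from 1.55 through 2.35 to 5.08 in the co-culture (trans 3.11, SE 0.39, adjusted p = 5.71e-14), and its BY allele in the co-culture had only 17.9 ± 13.1 CPM. FRE2, a ferric reductase, ran from -0.34 through 0.26 to 1.12 and from 2.12 through 2.47 to 3.48 (trans 2.34, SE 0.35). Neither gene's groups overlapped. FRE1 (0.66, SE 0.07), ARN1 (0.64, SE 0.16) and FTR1 (0.63, SE 0.11) were higher by less. FET3 (0.22, SE 0.10), the ferroxidase that works with Ftr1, and SIT1 (0.01, SE 0.14), a siderophore transporter, did not pass.

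The mean of the 2 hybrid alleles lay below both strains for 10 of the 11 iron genes, as for 748 of 2659 gene pairs in all. FRE2 stood at 301 ± 33.6 CPM for RM in the co-culture, against 48.1 ± 12.4 for BY there and 37.0 ± 13.97 and 48.1 ± 19.96 for BY and RM in the hybrid. The Aft1 core GCACCC was found upstream of 10 of 11 iron genes and of 7.43% of all promoters, and it is in capitals, or its reverse complement is, in the windows of the 2 genes with the largest differences. Both are from R64 on the minus strand, HMX1 at chrXII:554083-554168 and FRE2 at chrXI:11610-11695.
HMX1: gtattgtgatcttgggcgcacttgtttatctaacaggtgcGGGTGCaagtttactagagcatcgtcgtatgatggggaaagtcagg
FRE2: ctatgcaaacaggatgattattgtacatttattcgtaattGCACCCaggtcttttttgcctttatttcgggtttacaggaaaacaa
AFT1 itself did not pass (-0.33, SE 0.26).

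Among cell wall genes 12 of 17 tested members were higher and 1 lower (median 0.28), against 8.72% and 12.6% of all pairs. Most differed by small amounts. Without hybrid replicate 4 the counts were 8 and 0. CWP1, a mannoprotein of the wall, was the exception in size and ran from 1.05 through 1.25 to 1.496 in the hybrid and from 2.78 through 3.06 to 3.35 in the co-culture (trans 1.81, SE 0.09). Its RM allele was ahead in all replicates of both groups. EXG1, an exoglucanase, differed by 0.84 (SE 0.09), with its RM allele behind in both groups (cis -1.28, parental -0.44). FKS1, the main glucan synthase, was higher by 0.40 (SE 0.03), and its paralog GSC2 was lower by the test (-0.74, SE 0.21). GAS2, a glucanosyltransferase known from spore wall assembly, lay outside that list and was lower, from -2.87 through -2.28 to -1.71 in the hybrid and from -5.64 through -4.66 to -4.51 in the co-culture (trans -2.43, SE 0.30). For GAS2 the BY allele had 1357 ± 40.6 CPM in BY cells and 207 ± 19.6 in the hybrid.

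Nitrogen metabolism held single genes with large differences rather than whole pathways. BAT2, the cytosolic branched-chain aminotransferase, ran from 0.23 through 0.69 to 1.21 in the hybrid and from -2.52 through -2.31 to -1.74 in the co-culture (trans -2.88, SE 0.17, adjusted p = 2.72e-62). Its RM allele was ahead in every hybrid replicate and behind in every co-culture replicate. Of 8 tested branched-chain genes 4 were lower and 0 higher (median -0.16), against 12.6% and 8.72% of all pairs. The lower count was only 2 with TMM or DESeq2, which called 233 and 114 of all 2661 pairs lower. It was also 2 without any 1 of co-culture replicates 5 and 6 and hybrid replicates 2, 3, 4 and 6. ILV3 was among the 4 (-0.54, SE 0.08), the mitochondrial BAT1 was lower by little (-0.21, SE 0.08), and LEU1 (-0.12) did not pass. TAT1, a permease for amino acids, was lower (-1.47, SE 0.10), ARO10, a decarboxylase of the Ehrlich pathway, was lower (-1.16, SE 0.25), and GNP1, a glutamine permease, was higher (0.34, SE 0.04). TAT1 overlaps another annotated gene. Of 4 tested histidine genes 2 were lower and 0 higher, and 1 with a minimum of 500 reads.

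A run of neighbours on chromosome IX was lower. QDR2, a multidrug transporter of the plasma membrane, ran from 0.01 through 0.31 to 0.89 in the hybrid and from -3.82 through -3.18 to -2.53 in the co-culture (trans -3.56, SE 0.21). The next gene, QDR1, a paralog, differed by -1.54 (SE 0.29), and the one after, RPI1, a transcription factor gene linked to Ras signalling, by -1.64 (SE 0.17). RPI1 and QDR1 had cis ratios of 0.98 and 1.15 against parental ratios of -0.66 and -0.39. HIS5, of histidine synthesis, is 3 genes further on and differed by -1.31 (SE 0.35), also with its RM allele ahead in the hybrid (cis 1.65). On the other side SIM1 (0.29) and AYR1 (-0.27) did not pass, and POG1 and PRM5 fell short of the read minimum. On chromosome IX as a whole, 21 of 92 tested pairs were lower and 5 higher, against 12.6% and 8.72% of all pairs. The median there was -0.16, beside -0.08 over all pairs.

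The ribosomal lists had medians close to 0. Over all pairs 8.72% were higher and 12.6% lower. Of the same 2661 pairs TMM called 319 higher and 233 lower, and DESeq2 188 and 114. Of 46 cytosolic ribosomal protein genes 8 were higher and 1 lower (median 0.03; 16 and 1 under TMM), the lower one being lost without co-culture replicate 2 or hybrid replicate 6. Of 31 ribosome biogenesis genes 3 were higher and 1 lower (median 0.06; 6 and 0 under TMM), and 5 were higher without hybrid replicate 5. The 1 lower call was lost without any 1 of co-culture replicates 2, 3 and 4 and hybrid replicate 3. The mean of the hybrid alleles lay above both strains for 28 of those 31, as for 1214 of 2659 tested pairs in all. Of 25 tested proteasome genes 9 were lower and 0 higher (median -0.30), against 12.6% and 8.72% of all pairs. All 9 differed by less than 1. With TMM or without hybrid replicate 4, 6 were called, and 0 with DESeq2. Of the 7 tested oxidative defence genes 4 were lower and 2 higher (median -0.47), from GPX2, a glutathione peroxidase (-1.30, SE 0.22), to SOD1, the copper-zinc superoxide dismutase (0.36, SE 0.06). The higher count fell to 1 without any 1 of co-culture replicates 1, 5 and 6 and hybrid replicates 3 and 4.

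The other lists held calls in both directions or few calls. Their counts stand beside 8.72% higher and 12.6% lower over all pairs. Of 5 tested chaperone genes 3 were higher and 1 lower, with KAR2 of the endoplasmic reticulum (0.48) and the mitochondrial SSC1 (0.39) and HSP60 (0.30) on 1 side and STI1, a cochaperone of Hsp90 (-0.65), on the other; 2 were lower without co-culture replicate 2. Of 6 glycolysis genes 2 were higher, PFK1 (0.35) and PGI1 (0.22), and 1 lower, GPM1 (-0.18). HXT2, a hexose transporter induced at low glucose, was higher (0.91, SE 0.15), and it was the 1 tested member of 7 listed. Of 6 tested stress genes of the Msn2/Msn4 list 2 were lower, GSY2, a glycogen synthase (-1.99, SE 0.26), and NTH1, a trehalase (-0.89), whose call was lost with DESeq2, TMM, the replicate block and 7 of the 12 replicates left out in turn.

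Of 9 tested purine genes 3 were lower and 0 higher (median -0.28), against 12.6% and 8.72% of all pairs. Among the 3 were ADE12 (-1.11) and ADE13 (-0.55), which carry the last steps to AMP. DESeq2 called 0 of the list, beside 188 higher and 114 lower of all 2661 pairs. Of 11 aromatic amino acid genes 3 were lower and 1 higher (median -0.07; 2 and 1 under TMM, 1 and 0 with DESeq2). The 1 higher call was lost with no library block and without any 1 of co-culture replicates 1, 2, 3, 4 and 6 and hybrid replicates 1, 4, 5 and 6. Of 9 methionine and sulfate genes 3 were higher and 1 lower (median 0.21), the lower one, CYS4, being lost with TMM, DESeq2 or no library block. Of 7 pyrimidine genes 2 were higher (median 0.01), and 1 without co-culture replicate 2 or hybrid replicate 4. Of 4 heme synthesis genes 1 was higher, HEM1 (0.50), the first enzyme of the pathway, and its call was lost without hybrid replicate 4. In the zinc list FET4, a low-affinity iron transporter, was lower (-1.39, SE 0.20), while the zinc transporter ZRT1 (-0.08) did not pass. Of 6 pheromone response genes STE7, a kinase of the cascade, was higher (1.12, though not by DESeq2), while FAR1 (-0.65) and STE11 (-0.62) were lower, STE11 being lost without any 1 of 9 of the 12 replicates. YAP6, a transcription factor gene outside these lists, was among the 10 highest, from -0.14 through 0.69 to 1.15 in the hybrid and from 1.38 through 1.81 to 3.25 in the co-culture (trans 1.57, SE 0.26).

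The regulators' own ratios were given for 11 of 12 genes known to carry functional differences between these strains and for 12 of 27 activators and repressors of the pathways above. In the first set 4 were lower and 0 higher, against 12.6% and 8.72% of all pairs. These were HAP1, AMN1, PHO84 and CYS4, and CYS4 (-0.17, SE 0.05) was lost under TMM (-0.08) and DESeq2 (-0.10). HAP1 carries a transposon insertion in BY-lineage strains that weakens the protein. Its ratio ran from -1.33 through -0.93 to -0.54 in the hybrid and from -1.90 through -1.84 to -1.45 in the co-culture, a trans difference of -0.77 (SE 0.17, adjusted p = 0.000112) on top of a cis ratio of -0.95 (SE 0.12). The BY allele of HAP1 thus had more reads in both groups, at 495 ± 31.3 CPM in BY cells against 149 ± 28.1 for RM in RM cells. IRA2 (-0.08), a brake on Ras, and MKT1 (-0.15), STB5 (0.05), ZAP1 (-0.62), SIR3 (-0.26), OAF1 (0.23) and BUL2 (-0.20) did not pass, and GPA1 fell short of the read minimum.

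In the second set HAP4, the limiting subunit of the Hap2/3/4/5 complex, was higher, from -0.34 through -0.02 to 0.04 in the hybrid and from 0.24 through 0.72 to 1.199 in the co-culture (trans 0.77, SE 0.17, adjusted p = 8.23e-05). The BY allele of HAP4 went from 138 ± 28.6 CPM in BY cells to 368 ± 46.5 in the hybrid. The complex's letters CCAAT occurred upstream of 17 of 20 respiratory chain and 9 of 9 ATP synthase genes, and of 62.6% of all promoters. HAP2 (0.97, SE 0.36) and MOT3 (0.68) passed but were lost with DESeq2. HAP2 was also lost without any 1 of co-culture replicates 2, 3 and 5 and hybrid replicates 4 and 5, and MOT3 without co-culture replicate 3 or 6. SFP1, an activator of ribosome genes, was higher (0.46). LEU3 (-0.39), GCN4 (0.17) and IFH1 (0.05) did not pass. Which regulator, if any, carries each group's difference was not tested, since a regulator can act through a change in its protein that leaves its own reads even.

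**Figure D5:**
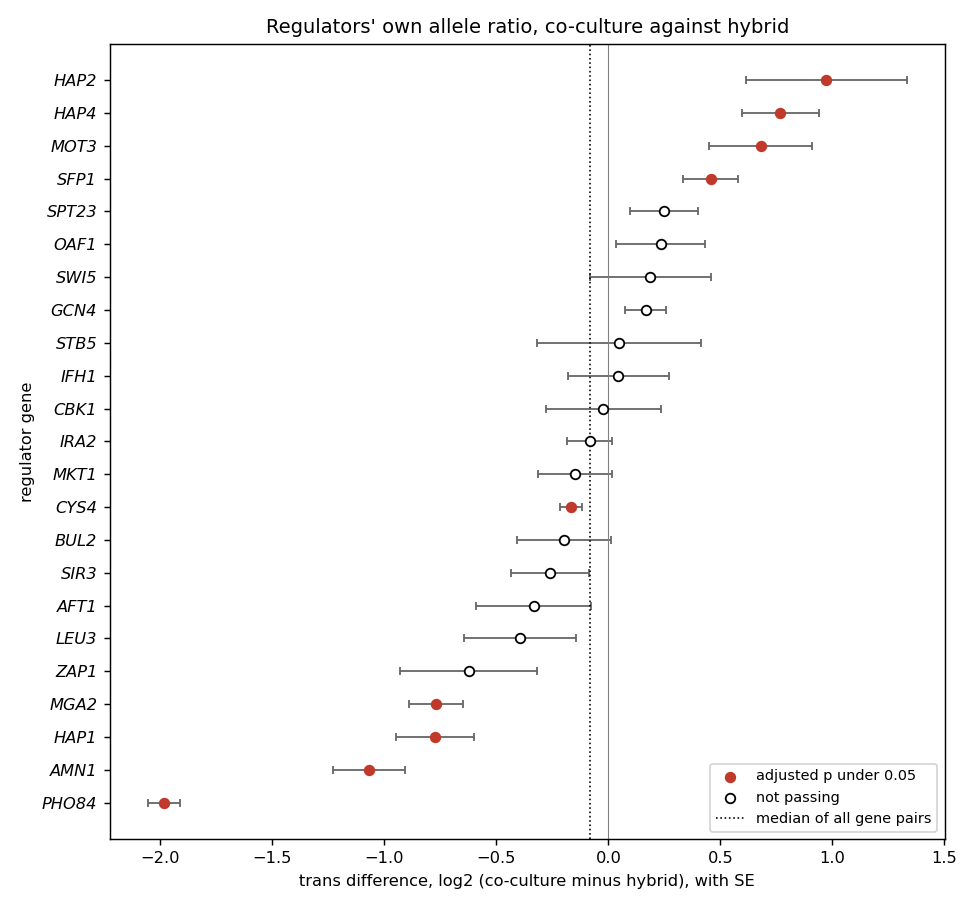
Points are the trans difference of each tested regulator gene on the log2 scale with SE, filled where the adjusted p was under 0.05; the dotted line is the median of all gene pairs. PHO84, AMN1 and HAP1 lie on the left and HAP2, HAP4 and MOT3 on the right.

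The strain markers gave the highest value of all. LYS2, of lysine synthesis, had 695 BY and 2 RM reads in the hybrid and 586 BY and 590 RM reads in the co-culture, a 284-fold change in the scaled ratio (95% exact counting interval 77.8 to 2360). Its BY allele stood at 552.9 ± 52.8 CPM in the hybrid and 501.5 ± 21.1 in BY cells, so that the RM allele alone was near 0 in the hybrid. The cis ratio was -7.97 and the parental ratio -0.27. Whether the RM parent of the hybrid and the RM strain of the co-culture share a lysine marker was not tested. MET17, which is deleted in BY4741, was listed at 0 for BY throughout, with 149 RM reads in hybrid and 206 in co-culture libraries, and gives no ratio.

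Sequence composition moved weakly with the trans difference across gene pairs. Spearman's rho over 2648 pairs with an R64 coding sequence was -0.101 with the percent of A and 0.114 with the percent of G and C, as a description over genes that share their libraries. The median percent of A was 29.8 for pairs called higher, 31.9 for pairs called lower and 32.5 for all tested. Its part in the results was not tested. Reads of paralogs such as HMG1 and HMG2, QDR1 and QDR2 or FRE1 and FRE2 are uncertain where the counting could split them.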

How the data were processed

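Per the file headers, the authors deposited, for each library and gene pair, raw counts, without normalisation, of reads that cover BY/RM sequence differences, 1 column per allele. Aligner, genome build, read filters and strand handling: not given in the sources used here. Of 4442 pairs, 4325 matched a locus tag of the RefSeq R64 assembly, which supplied names, neighbours, coordinates and upstream sequence, and 117 did not.

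Within a group, libraries were summed by complete linkage where a chi-square test over allele counts (at least 20 reads) found no difference (p of 0.05 or more) and other pairs did differ (p under 0.001). Hybrid replicates 1, 2 and 5 were single libraries, 3 summed 2, 4 summed 4 and 6 summed 3. Co-culture replicate 1 was a single library, 2 summed 3 and the other replicates 2 each.

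All allele columns entered 1 edgeR 4.0.16 (R 4.3.3) quasi-likelihood fit blocked by summed library and with an allele term within each group. Library size was the column total, and p-values were adjusted by Benjamini-Hochberg over all 2661 pairs (threshold 0.05). The SE is the absolute log2 difference over the square root of F. Ratios per replicate carry a pseudocount of 0.5 reads. Levels are CPM, reads per 1000000 reads of the allele column. Permutation tests and exact 95% counting intervals used SciPy 1.17.1; they cover these libraries' counting error or spread only. The procedure was checked on simulated counts of the same depth. Simulated trans differences of 0.5 in size were called for 30.6 to 34.7% of the changed pairs, and those of 1 for 74 to 75.5%. A pair that did not pass may thus still differ. There were 6 false calls among the 2660 simulated pairs tested. The simulation gave every pair 1 dispersion (spread beyond sampling), close to the fit's common value of 9.77e-05, and no spread between cultures. The false calls therefore do not measure the error rate over cultures.

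Named genes were the 10 called pairs with the largest difference in each direction (at least 240 reads in each group, replicates not overlapping), the 3 called members with the smallest p of each function list, and all tested members of the regulator and marker lists. 1 of the gene pairs so picked is not reported here. Further list members are given to describe their group and were chosen after their values were seen. The comparison, the gene lists and the motifs were chosen with earlier results of these data known. The alternatives were TMM scaling, DESeq2 1.42.0, unsummed libraries with and without a replicate block, read minimums of 20 and 500 or none, no library block, and each replicate left out.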

Additional observations from a re-analysis of the deposited data

Results flagged for a closer look

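In 224 groups of 6 summed replicates of the named genes, 19 held a replicate whose log2 RM-over-BY ratio lay far from the other 5; chance alone flags about 1 in 20 groups. In the co-culture these were GAS2 in replicate 1 (-5.64, the others -4.72 to -4.51), RPI1 in replicate 4 (-1.39), CYT1 in replicate 5 (2.63) and PLN1 in replicate 4 (0.97, the others 1.95 to 2.49). HMX1 stood at 5.08 in replicate 3, with the others between 1.55 and 2.85, on the few BY reads noted for it. FET4, a low-affinity iron transporter, stood at -1.67 in replicate 4 (the others -3.03 to -2.66). SIC1 in replicate 1 stood at 0.51, with the others between -1.06 and -0.89. In the co-culture STE11 (0.40 in replicate 1), IRA2 (0.31 in replicate 1), BUL2 (-1.26 in replicate 6) and SPT23 (-0.23 in replicate 3) were also apart. In the hybrid HIS5 in replicate 3 (0.23), TRP5 in replicate 5 (-1.56), TRP3 in replicate 6 (0.10), FAR1 in replicate 1 (1.93), GSY2 in replicate 1 (-0.80), HAP4 in replicate 5 (-0.34), MOT3 in replicate 2 (0.68) and RPN3 in replicate 1 (-0.33) were apart.

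Among the 10 pairs with the largest difference in each direction, those whose allele order turned between groups were OLE1 (trans 2.21, cis -1.14, parental 1.07), RPI1 (-1.64, 0.98, -0.66), BAT2 (-2.88, 0.59, -2.29), VTC3 (-1.79, 0.14, -1.65) and CTS1 (-4.42, 0.50, -3.92), with every replicate of a group on 1 side of 0, though the lowest hybrid ratio of VTC3 was only 0.003. Over all tested pairs 51 passed in cis, parental and trans with opposite signs of cis and parental, 20 with RM ahead in the hybrid and 31 with BY ahead, and 7 had both ratios beyond 0.5 in size.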

How the results depend on the processing

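The 566 trans calls became 552 with TMM, 561 and 378 with minimums of 20 and 500 reads, 555 with no filter, 501 with no library block and 302 with DESeq2. DESeq2 called 188 higher and 114 lower, and 196 were lower at 500 reads, where fewer pairs were tested; the cause of the DESeq2 counts was not tested. DESeq2 called 276 pairs in cis. All 296 pairs that DESeq2 shared with the 566 kept their direction. Leaving out 1 replicate gave 460 to 570 calls, 206 to 235 higher and 254 to 336 lower, and differences in ratio spread of 0.0953 to 0.102 (0.0848 at 500 reads, 0.0962 with centred ratios). Of 112 named gene pairs, 23 lost their call with DESeq2, 8 with TMM (1 gained it) and 0 to 13 without 1 replicate, and none reversed in these settings. The 112 include pairs that had not passed, most of them regulators, and these had no call to lose. Library numbers did not pair the samples: same-numbered libraries correlated between -0.084 and 0.047, and none matched its own number best. With the number as a replicate block over 12 libraries a group 565 pairs were called, against 576 without it. Depth limits most of the table, as the median tested pair had 405 hybrid and 372 co-culture reads.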

Other observations

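Several genes outside the rule, chosen after their values were seen, had trans differences in the same functions or in drug export. PDR5, the main multidrug exporter, differed by -1.20 (SE 0.03), with 12540 ± 277 CPM for BY and 5704 ± 121 for RM in the co-culture and 4718 ± 311 and 4848 ± 312 in the hybrid. PDR3, an activator of PDR5, differed by -0.91 (SE 0.23). Other exporters were higher, TPO1, a polyamine transporter, by 1.36 (SE 0.19), PDR12, which exports weak acids, by 0.86 (SE 0.18), and SNQ2 by 0.79 (SE 0.15). Hybrid and co-culture replicates did not overlap for these 5 genes, as for 229 of all 2661 pairs (8.61%). Because the 5 were chosen after their values were seen, this adds no support.

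In mitochondrial transport, PET9, the main ADP/ATP carrier, was higher by 1.10 (SE 0.05) and MIR1, the phosphate carrier, by 1.11 (SE 0.13). In lipid metabolism ACS2, the acetyl-CoA synthetase of cells grown on glucose, was higher by 1.31 (SE 0.07), and YEH1, a steryl ester hydrolase, by 1.11 (SE 0.14). MMP1, the S-methylmethionine permease, was higher by 1.18 (SE 0.16), and is named by the rule.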
